A study of Arabidopsis thaliana with 18 samples.

Results

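The transcripts of 41 cell division genes were followed in 6 genotypes of Arabidopsis thaliana, 12 of them genes of DNA replication in S phase and 29 genes of mitosis and cytokinesis. They were chosen by their known function, but with earlier results of these data known, so the choice may not be independent of them. The genes were matched by locus identifier among the 33602 gene models of the count tables. All 41 were present and all 41 passed the filter on low counts. The 12 S-phase genes are the 6 subunits of the replicative helicase (MCM2 to MCM7) and 6 genes of origin licensing and the replication fork (CDC6, CDT1A, PCNA1, PCNA2, TSO2 and E2FA). The 29 mitotic genes are 5 A-type cyclins, 9 B-type cyclins, 4 CDKB kinases, 7 genes of the spindle and its checkpoint and 4 of cytokinesis. The A-type cyclins, CYCA3;1 among them, act from S phase to M phase and are counted here with the mitotic genes. RNA came from whole plants grown without treatment in vitro on 0.3 % sucrose at 20 °C with 16 h of light, to Boyes stage 1.02, an early rosette stage. The genotypes, all in the Col0 accession, were the lst8 mutant lst8-1, the yak1 mutant yak1, the double mutant yak1lst8-1, the maktor mutants maktor1g1 and maktor1g1maktor5g, and wild type Col0 as the control. The labels name 3 libraries of each genotype and leave out the genes hit by the maktor alleles and the number of plants per library; the series design speaks of gene knock out and of 2 biological replicates. Where libraries of a genotype share a plant pool, the p-values measure the spread between libraries, which may be technical.

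LST8 stabilises TOR, the target of rapamycin, in a kinase complex that couples growth and cell division to nutrients, and YAK1 is a protein kinase that acts with this pathway. In plants, E2F transcription factors switch on replication genes at the entry into S phase through E2F sites in their promoters. Genes of the G2 and M phases are switched on by MYB3R transcription factors through the mitosis-specific activator (MSA) element, whose core is AACGG. In a young plant most divisions take place in the shoot and root meristems, in leaf primordia and in the stomatal lineage, so these transcripts come from a small share of the cells. In such bulk RNA, fewer dividing cells and less RNA per dividing cell cannot be told apart.

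The sequences around the annotated transcription starts were searched for both kinds of site. The windows ran from 250 bases before to 50 bases after the start in the RefSeq annotation of TAIR10.1, and all 41 genes had one. An E2F site (TTTCCCGC, TTTGGCGC, TTTCGCGC or TTTGCCGC on either strand) was found in 5 of the 12 S-phase windows (41.7 %), in 0 of the 29 mitotic windows and in 1.83 % of the 19947 windows of tested protein-coding genes. All 5 belong to helicase subunits, with MCM7 the one without. Only these 4 forms, which all end in C, were searched. A similar run ending in G, such as TTTCGCGG in the CDT1A window, was not counted. Nor was a run with another first letter, such as GTTCCCGC on the opposite strand of the PCNA1 and PCNA2 windows. So the counts hold for these forms only. The MSA core AACGG, on either strand, was found in 20 of the 29 mitotic windows (69.0 %), 4 of the 12 S-phase windows (33.3 %) and 25.8 % of the windows of tested genes. The longer form CNAACGG, which overlaps every core it contains, was in 12 mitotic windows (41.4 %), 0 S-phase windows and 6.01 % of all. By role, the core was present in 8 of 9 B-type cyclins, 4 of 4 cytokinesis genes, 4 of 7 spindle genes, 3 of 5 A-type cyclins and 1 of 4 CDKB kinases. A match is a run of letters and does not show that a factor binds there.

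These 6 windows are shown because the results below turn on these genes. MCM2 and MCM5 held an E2F site and were not called in any comparison. CYCB1;2, CYCB1;4 and KNOLLE held MSA cores and were called lower in lst8-1. BUBR1 and CDKB2;1, not shown, were called lower there without a core, and 12 of the 19 mitotic genes not called held one. CDC6, the member with the largest change, held neither of the forms searched. Its longest RefSeq transcript has 2209 bases and the counted model 1643, so its window may lie away from the start of that model. Each is given 5′ to 3′ on the strand of the gene, in lower case with E2F sites or MSA cores in capitals; CCGTT is the core on the opposite strand. The TAIR10.1 positions are chr1:16969964-16970263 (+) for MCM2 (AT1G44900), chr2:3527451-3527750 (−) for MCM5 (AT2G07690), chr5:1861654-1861953 (−) for CYCB1;2 (AT5G06150), chr2:11400868-11401167 (+) for CYCB1;4 (AT2G26760), chr1:2710951-2711250 (−) for KNOLLE (AT1G08560) and chr2:12688921-12689220 (+) for CDC6 (AT2G29680).
MCM2: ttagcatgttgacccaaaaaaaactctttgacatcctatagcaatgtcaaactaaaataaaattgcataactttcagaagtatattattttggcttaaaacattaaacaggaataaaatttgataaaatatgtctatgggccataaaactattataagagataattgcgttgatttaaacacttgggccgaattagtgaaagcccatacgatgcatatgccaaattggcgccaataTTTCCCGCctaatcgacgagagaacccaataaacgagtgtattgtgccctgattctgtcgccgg
MCM5: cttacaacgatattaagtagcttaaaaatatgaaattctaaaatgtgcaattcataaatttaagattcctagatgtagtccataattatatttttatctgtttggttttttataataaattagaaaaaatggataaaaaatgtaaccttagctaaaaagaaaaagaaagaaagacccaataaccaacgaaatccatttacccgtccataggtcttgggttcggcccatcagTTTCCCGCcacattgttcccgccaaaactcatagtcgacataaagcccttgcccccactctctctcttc
CYCB1;2: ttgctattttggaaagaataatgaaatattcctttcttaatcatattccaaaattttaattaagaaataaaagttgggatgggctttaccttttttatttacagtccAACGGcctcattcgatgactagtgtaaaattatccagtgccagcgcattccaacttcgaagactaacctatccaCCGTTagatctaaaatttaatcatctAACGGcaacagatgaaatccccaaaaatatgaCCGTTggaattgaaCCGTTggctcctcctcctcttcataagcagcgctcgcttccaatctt
CYCB1;4: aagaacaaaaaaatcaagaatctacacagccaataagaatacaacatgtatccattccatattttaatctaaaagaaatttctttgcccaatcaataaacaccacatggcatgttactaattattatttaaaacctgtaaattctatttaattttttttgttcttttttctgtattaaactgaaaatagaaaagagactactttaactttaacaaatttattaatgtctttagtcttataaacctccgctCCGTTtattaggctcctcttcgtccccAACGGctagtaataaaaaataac
KNOLLE: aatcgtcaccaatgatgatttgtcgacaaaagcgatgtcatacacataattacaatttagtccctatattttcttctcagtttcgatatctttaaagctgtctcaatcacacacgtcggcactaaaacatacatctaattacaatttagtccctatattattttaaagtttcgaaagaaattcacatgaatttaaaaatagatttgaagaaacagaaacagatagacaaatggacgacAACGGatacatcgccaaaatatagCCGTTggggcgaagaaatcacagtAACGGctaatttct
CDC6: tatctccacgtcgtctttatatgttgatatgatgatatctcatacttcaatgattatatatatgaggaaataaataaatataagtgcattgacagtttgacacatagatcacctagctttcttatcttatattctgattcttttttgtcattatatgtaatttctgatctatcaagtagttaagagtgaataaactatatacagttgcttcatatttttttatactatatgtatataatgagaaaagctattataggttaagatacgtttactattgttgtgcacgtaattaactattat

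Library totals were 10801464 to 17548790 counted reads, and single members had between 5 counts (CYCA2;1) and 720 counts (TSO2) in a library. Levels are given as CPM, counts scaled to a common library size by TMM. The tissue label, whole plant, was checked against markers of leaves (RBCS1A, CAB1, CAB2 and LHCA1) and of roots (SHV2, RSL4, CASP1 and EXPA7), and all 8 were detected in each genotype. The LST8-1 transcript (AT3G18140) was at 2.31 ± 0.159 CPM in lst8-1, 1.53 ± 0.554 CPM in yak1lst8-1 and 50.7 ± 3.55 CPM in Col0 (SD, n = 3). The YAK1 transcript (AT5G35980) went against its label: it was at 322 ± 75.6 CPM in the libraries labelled yak1 and 337 ± 72.0 CPM in those labelled yak1lst8-1, against 122 ± 20.3 CPM in Col0. Gene counts do not show whether that transcript is intact, so each direction given for yak1 and yak1lst8-1 below is a direction between libraries by their labels.

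Summed over the 12 S-phase genes, the level was 205, 192 and 138 CPM in the 3 lst8-1 libraries, 221, 187 and 174 CPM in yak1, 198, 185 and 177 CPM in yak1lst8-1, and 199.9, 187 and 189.6 CPM in Col0. Summed over the 29 mitotic genes, it was 219, 190 and 128 CPM in lst8-1, 285, 225 and 181 CPM in yak1, 218, 174 and 160 CPM in yak1lst8-1, and 285, 261 and 256 CPM in Col0. So the mitotic sums of lst8-1 and yak1lst8-1 lay below every Col0 library, while the S-phase sums of all 3 mutants overlapped those of Col0. The ratio of the mitotic to the S-phase sum was 1.07, 0.990 and 0.929 in lst8-1, 1.29, 1.20 and 1.04 in yak1, 1.10, 0.941 and 0.904 in yak1lst8-1, and 1.43, 1.40 and 1.35 in Col0. None of these 3 genotypes overlapped Col0 in this ratio. In maktor1g1 the ratio was 1.46, 1.29 and 1.33 and in maktor1g1maktor5g 1.40, 1.34 and 1.27, and both ranges overlapped that of Col0. The ratio is a description of the chosen genes and was not tested.

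**Figure D1:**
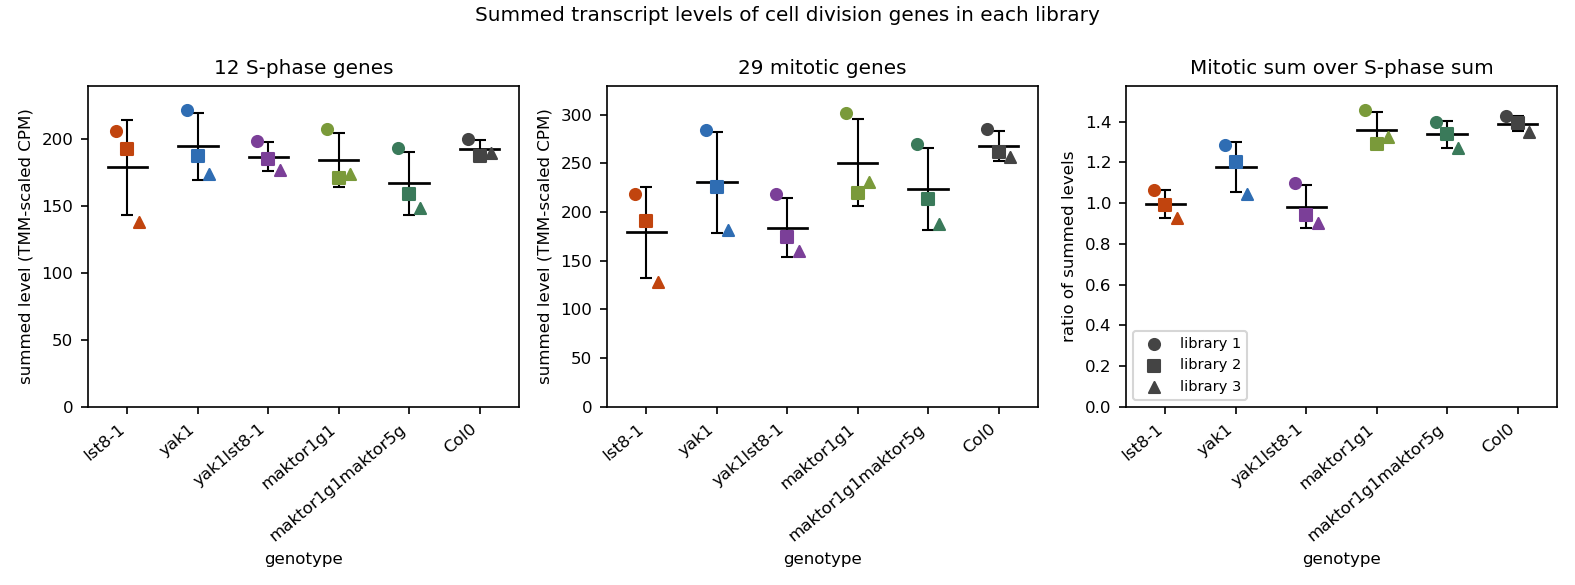
Summed level of the 12 S-phase genes (left), of the 29 mitotic genes (middle), both in TMM-scaled CPM, and the mitotic sum over the S-phase sum (right), by genotype. Symbols are single libraries, marked by library number, the line is the mean and the bar the SD (n = 3). The mitotic sums of lst8-1 (128 to 219 CPM) and yak1lst8-1 (160 to 218 CPM) lie below those of Col0 (256 to 285 CPM), and the S-phase sums overlap.

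The library number moved with these levels. Library 1 had the highest sum of its genotype in 6 of 6 genotypes for both sets of genes, and library 3 the lowest mitotic sum in 5 of 6 and the lowest S-phase sum in 4 of 6. In lst8-1, library 3 held the lowest value of 38 of the 41 members, and in yak1 of 36. CDC6 ran the other way, with its lowest value in library 1 in all 6 genotypes. Set by number, the mitotic sum of lst8-1 was below that of Col0 for library 1 (219 against 285 CPM), library 2 (190 against 261 CPM) and library 3 (128 against 256 CPM). What the number stands for is not given in the labels.

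**Figure D2:**
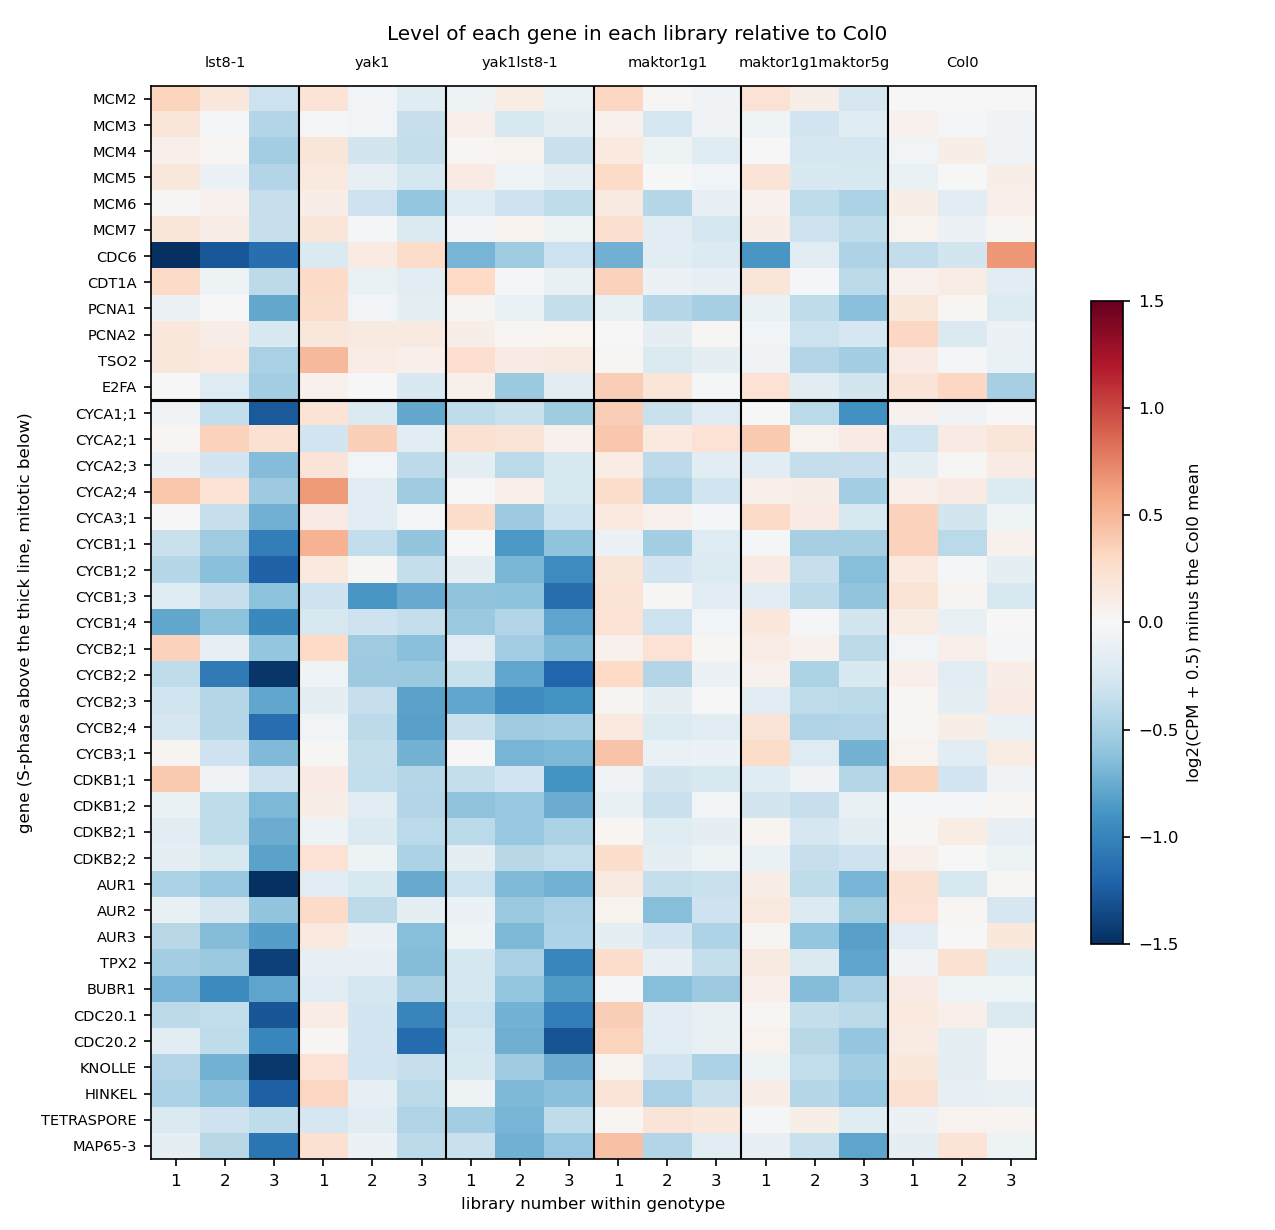
Level of each of the 41 genes in each of the 18 libraries, as log2(CPM + 0.5) minus the mean of the Col0 libraries; rows are genes, S-phase above and mitotic below the thick line, and columns are libraries 1 to 3 of each genotype. Blue is lower and red higher than the Col0 mean, and colours end at ±1.5. Below the line lst8-1 and yak1lst8-1 are mostly blue, with library 3 of lst8-1 the darkest, while CDC6 stands out among the S-phase genes.

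In lst8-1 compared with Col0, 11 of the 41 genes fell and none rose (26.8 % called lower). Of all 20619 genes tested, 27.5 % were called, 13.4 % lower and 14.1 % higher. The calls were 10 of the 29 mitotic genes and, among the 12 S-phase genes, CDC6. The median log2 fold change was −0.49 over the mitotic genes, −0.07 over the S-phase genes and 0.00099 over all genes tested. Values were negative in 26 of 29 mitotic genes and in 10 of 12 S-phase genes. Calls were made at an adjusted p below 0.05 by edgeR's quasi-likelihood test with Benjamini-Hochberg adjustment over all genes tested. In 19 members, 18 of them mitotic, every lst8-1 library lay below every Col0 library, against 19.9 % of all genes.

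The helicase subunits, which form the ring that unwinds DNA at the fork, gave no call in lst8-1. MCM7 (AT4G02060), the subunit with the highest level per kilobase (7.80 CPM per kb), was at 23.1, 21.8 and 15.9 CPM in lst8-1 and 21.2, 19.2 and 20.9 CPM in Col0. MCM2 was at 22.9, 20.1 and 14.3 CPM in lst8-1 and 18.1, 18.0 and 18.0 CPM in Col0, and MCM3 (AT5G46280) at 22.0, 19.0 and 14.2 CPM in lst8-1 and 20.2, 19.2 and 18.7 CPM in Col0. Libraries overlapped for all 6 subunits. Their log2 fold changes ran from −0.11 to 0.09 with SE of 0.14 to 0.18, and none was called.

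Among the licensing and fork genes, CDC6, which loads the helicase onto origins together with CDT1, was far lower in lst8-1. It was at 1.84, 3.57 and 3.98 CPM in lst8-1 and 7.07, 7.62 and 14.8 CPM in Col0, so that each lst8-1 library lay below each Col0 library. Its log2 fold change was −1.68 ± 0.32 (SE, edgeR adjusted p = 0.000917). The other 11 S-phase genes ran from −0.27 to 0.09 with none called. TSO2 (AT3G27060), a small subunit of ribonucleotide reductase and the member with the highest level per kilobase (26.2 CPM per kb), was at 39.7, 39.0 and 24.9 CPM in lst8-1 and 38.4, 34.6 and 32.6 CPM in Col0. PCNA1 (AT1G07370), a sliding clamp of the polymerase, was at 10.8, 11.5 and 6.55 CPM in lst8-1 and 13.1, 11.8 and 9.93 CPM in Col0. Both genes overlapped between the genotypes. CDC6 overlaps AT2G29679 on the other strand, which had 0 counts in all 18 libraries, and 0.231 % of its 50-base stretches also occur in the homolog CDC6B (AT1G07270). CDC6B, named after its values were seen, had a log2 fold change of −1.01 ± 0.32 (SE, edgeR adjusted p = 0.0231) in the same comparison.

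The A-type cyclins, which act from S phase to M phase, gave no call in lst8-1. CYCA2;3 (AT1G15570), the one with the highest level per kilobase (5.50 CPM per kb), was at 11.0, 9.56 and 7.33 CPM in lst8-1 and 10.6, 11.9 and 12.8 CPM in Col0. CYCA1;1 (AT1G44110) was at 8.40, 6.62 and 3.35 CPM in lst8-1 and 9.14, 8.39 and 8.66 CPM in Col0, and CYCA3;1 (AT5G43080) at 2.64, 1.96 and 1.40 CPM in lst8-1 and 3.47, 2.08 and 2.48 CPM in Col0. All 5 overlapped Col0, with log2 fold changes from −0.49 to 0.35.

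The B-type cyclins, which drive entry into mitosis with their CDK partners, had negative log2 fold changes in 9 of 9 cases in lst8-1, and 4 fell. CYCB1;4 was at 5.83, 6.62 and 5.07 CPM in lst8-1 and 11.3, 9.54 and 10.4 CPM in Col0, with no overlap (log2 fold change −0.82 ± 0.16, edgeR adjusted p = 0.000748). CYCB1;2, the B-type cyclin with the highest level per kilobase (8.23 CPM per kb), was at 12.1, 10.5 and 6.86 CPM in lst8-1 and 18.4, 16.4 and 15.0 CPM in Col0 (−0.74 ± 0.24, edgeR adjusted p = 0.0326). CYCB2;3 (AT1G20610) was at 6.38, 5.82 and 4.44 CPM in lst8-1 and 8.14, 7.16 and 8.72 CPM in Col0 (−0.52 ± 0.16, edgeR adjusted p = 0.0238), and CYCB2;2 (AT4G35620) had a log2 fold change of −0.98 ± 0.29 (edgeR adjusted p = 0.0176). In these 4 genes the lst8-1 libraries all lay below the Col0 libraries. CYCB1;3 (AT3G11520) was at 5.03, 4.43 and 3.59 CPM in lst8-1 and 6.67, 5.93 and 4.79 CPM in Col0, which overlap, and was not called. Of the 50-base stretches of CYCB1;2, 10.9 % also occur in its near copy AT1G34460, and 12.5 % of those of CYCB2;3 in AT1G20590, so that reads of these genes may have been split or dropped. AT1G34460 had 1.09 ± 0.146 CPM in lst8-1, against 0.456 ± 0.0881 CPM in Col0 (SD, n = 3), and went the other way from CYCB1;2 (1.26 ± 0.35, edgeR adjusted p = 0.00977), and AT1G20590 had 0 counts in all libraries.

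The CDKB kinases are plant-specific partners of mitotic cyclins, and of the 4, CDKB2;1 (AT1G76540) fell in lst8-1. It was at 16.4, 13.9 and 10.8 CPM in lst8-1 and 18.5, 19.8 and 16.8 CPM in Col0, with no overlap (log2 fold change −0.41 ± 0.13, edgeR adjusted p = 0.0254). CDKB1;2 (AT2G38620) was at 4.17, 3.34 and 2.65 CPM in lst8-1 and 4.47, 4.46 and 4.60 CPM in Col0, also without overlap, but was not called (−0.40 ± 0.18, edgeR adjusted p = 0.106). CDKB1;1 (AT3G54180) overlapped, at 8.09, 5.82 and 4.76 CPM in lst8-1 and 7.74, 4.85 and 5.82 CPM in Col0.

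All 7 genes of the spindle and its checkpoint had negative log2 fold changes in lst8-1, and 3 fell. BUBR1 (AT2G33560), a component of the spindle assembly checkpoint, was at 3.86, 3.17 and 3.59 CPM in lst8-1 and 7.21, 6.31 and 6.30 CPM in Col0 (−0.90 ± 0.22, edgeR adjusted p = 0.00544). AUR1 (AT4G32830), an Aurora kinase of the spindle and the cell plate, was at 6.62, 6.16 and 2.81 CPM in lst8-1 and 11.1, 7.85 and 9.51 CPM in Col0 (−0.85 ± 0.27, edgeR adjusted p = 0.0286). TPX2 (AT1G03780), a microtubule protein that activates Aurora kinase, was at 9.01, 8.69 and 4.60 CPM in lst8-1 and 12.5, 15.3 and 11.4 CPM in Col0 (−0.79 ± 0.28, edgeR adjusted p = 0.0429). None of the 3 overlapped between the genotypes. CDC20.1 (AT4G33270), an activator of the anaphase-promoting complex, was at 14.0, 14.2 and 7.33 CPM in lst8-1 and 20.6, 19.5 and 15.8 CPM in Col0, without overlap and without a call. It shares 30.0 % of its 50-base stretches with CDC20.2 (AT4G33260), which lies beside it, so the split of reads between both is uncertain.

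Of the 4 cytokinesis genes, 2 fell in lst8-1 and all 4 had no overlap with Col0. KNOLLE, the syntaxin that fuses vesicles into the cell plate, was at 21.3, 17.6 and 10.3 CPM in lst8-1 and 32.4, 26.2 and 28.8 CPM in Col0 (−0.82 ± 0.23, edgeR adjusted p = 0.0149). At 19.7 CPM per kb it had the highest level per kilobase of the mitotic genes. HINKEL (AT1G18370), a kinesin that expands the phragmoplast, was at 12.7, 11.4 and 7.33 CPM in lst8-1 and 21.0, 16.4 and 16.5 CPM in Col0 (−0.77 ± 0.26, edgeR adjusted p = 0.0363). TETRASPORE (AT3G43210), the related kinesin, was at 8.22, 7.71 and 7.33 CPM in lst8-1 and 9.08, 10.0 and 9.93 CPM in Col0, just outside the threshold (−0.32 ± 0.12, edgeR adjusted p = 0.0516).

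The count of 11 rests on the choice of libraries. It was 3 without Col0 library 1, 4 without lst8-1 library 3, 5 without lst8-1 library 2, 6 without Col0 library 3 and 7 without Col0 library 2. It was 6 when libraries were scaled by their totals alone, 8 when both genotypes were fitted alone and 9 without the filter. The count was 11 with DESeq2, 12 with RLE size factors, 13 without lst8-1 library 1 and 21 with the library number as a block. CDC6, CYCB1;4 and BUBR1 were called under all 12 alternatives tried. The mitotic median was −0.29 and the S-phase median 0.07 without lst8-1 library 3. Marker sums of the root meristem, leaves and roots did not overlap between lst8-1 and Col0, while those of the shoot meristem and the stomatal lineage did. The summed level of the 8 shoot meristem markers was 70.4 to 92.6 CPM in lst8-1 and 77.8 to 86.0 CPM in Col0, of the 5 root meristem markers 48.9 to 51.1 CPM in lst8-1 and 40.6 to 44.5 CPM in Col0, and of the 6 stomatal lineage markers 14.4 to 23.2 CPM in lst8-1 and 13.9 to 18.5 CPM in Col0. No marker of these lists was at 0 in either genotype, and PLT1, PLT2 and MUTE were called higher in lst8-1. The 4 leaf markers summed to 28813.5 to 33203.4 CPM in lst8-1 and 36422.1 to 39260.9 CPM in Col0, with RBCS1A called lower, and the 4 root markers to 125 to 205 CPM in lst8-1 and 76.2 to 115 CPM in Col0, with SHV2, RSL4 and EXPA7 called higher. Their part in the change of the cell division genes was not tested.

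**Figure D3:**
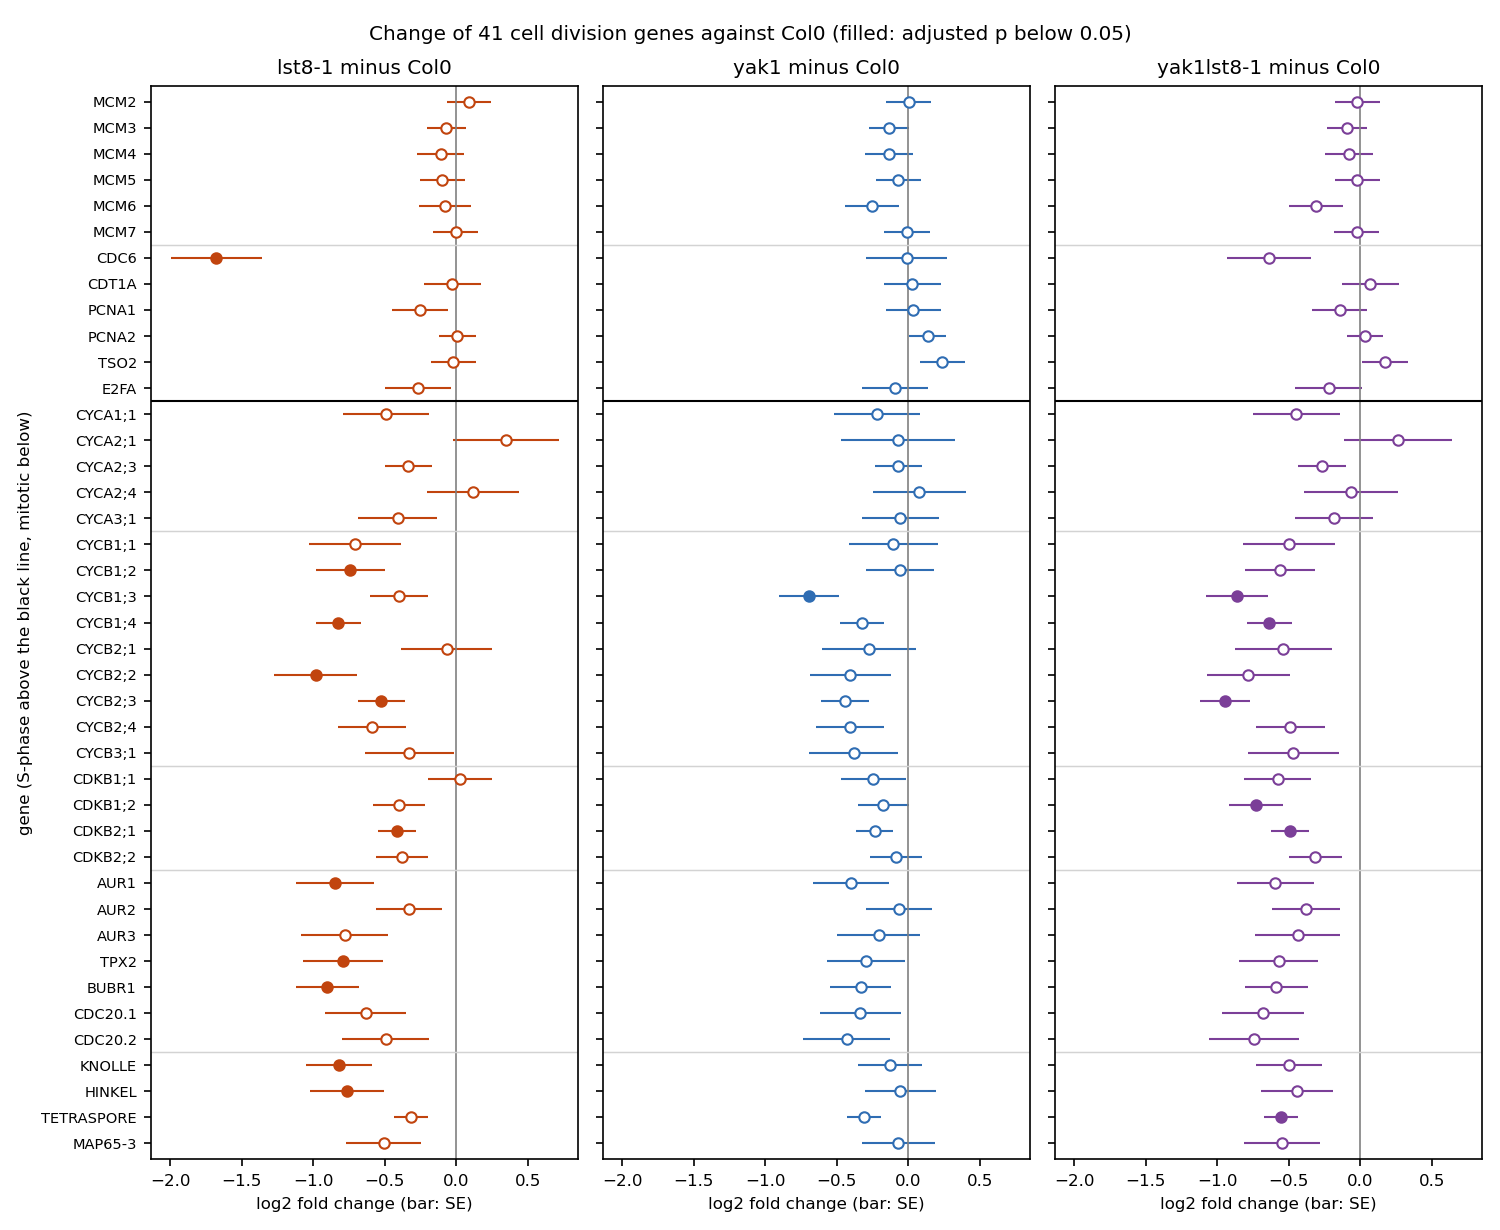
Log2 fold change of the 41 genes in lst8-1, yak1 and yak1lst8-1, each minus Col0; points are estimates, bars the SE, and filled points have an adjusted p below 0.05 by edgeR. S-phase genes are above the black line and mitotic genes below, with roles parted by grey lines. Apart from CDC6, the S-phase genes lie between −0.31 and 0.24 in all 3 panels, while most mitotic genes lie left of 0, with 10 filled points in lst8-1, 1 in yak1 and 6 in yak1lst8-1.

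In the double mutant, 6 of the 41 genes fell relative to Col0 and none rose, against 18.9 % of all genes called, 8.65 % lower and 10.3 % higher. All 6 were mitotic: CYCB1;3, CYCB1;4, CYCB2;3, CDKB1;2, CDKB2;1 and TETRASPORE. The median log2 fold change was −0.54 over the mitotic genes, with 28 of 29 negative, and −0.05 over the S-phase genes, with 9 of 12 negative. In 22 members, 21 of them mitotic, the yak1lst8-1 libraries all lay below the Col0 libraries, against 16.9 % of all genes.

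CYCB2;3 had the largest fall among them, at 4.43, 3.95 and 4.07 CPM in yak1lst8-1 and 8.14, 7.16 and 8.72 CPM in Col0 (−0.94 ± 0.17, edgeR adjusted p = 0.000736). CYCB1;3 was at 3.61, 3.56 and 2.36 CPM in yak1lst8-1 and 6.67, 5.93 and 4.79 CPM in Col0 (−0.86 ± 0.22, edgeR adjusted p = 0.00833), and CYCB1;4 at 6.88, 7.51 and 5.78 CPM in yak1lst8-1 and 11.3, 9.54 and 10.4 CPM in Col0 (−0.64 ± 0.16, edgeR adjusted p = 0.00764). These 3 cyclins did not overlap Col0 in any library. Of the kinases, CDKB1;2 was at 2.80, 2.89 and 2.50 CPM in yak1lst8-1 and 4.47, 4.46 and 4.60 CPM in Col0 (−0.73 ± 0.19, edgeR adjusted p = 0.0109). CDKB2;1 was at 13.7, 12.2 and 13.1 CPM in yak1lst8-1 and 18.5, 19.8 and 16.8 CPM in Col0 (−0.49 ± 0.13, edgeR adjusted p = 0.0144). CDKB1;1, at 4.61, 4.81 and 3.00 CPM in yak1lst8-1, lay below the 7.74, 4.85 and 5.82 CPM of Col0 but was not called (−0.58 ± 0.24, edgeR adjusted p = 0.0945). The kinesin TETRASPORE fell by 0.55 ± 0.12 on the log2 scale (edgeR adjusted p = 0.00310), to 6.59, 5.78 and 7.28 CPM in yak1lst8-1, against 9.08, 10.0 and 9.93 CPM in Col0.

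Other genes that fell in lst8-1 gave lower values here too but no call. KNOLLE was at 24.7, 19.9 and 17.1 CPM in yak1lst8-1 (−0.50 ± 0.23, edgeR adjusted p = 0.142), BUBR1 at 5.42, 4.24 and 3.43 CPM in yak1lst8-1 (−0.59 ± 0.22, edgeR adjusted p = 0.0693), and both lay below every Col0 library. The spindle genes AUR1 (7.40, 5.78 and 5.57 CPM in yak1lst8-1), TPX2 (10.8, 9.14 and 6.35 CPM in yak1lst8-1) and CDC20.1 (14.7, 11.2 and 8.78 CPM in yak1lst8-1) also lay below every Col0 library without a call. HINKEL, at 16.8, 11.0 and 11.4 CPM in yak1lst8-1, overlapped Col0. CDC6 was at 5.54, 6.26 and 7.35 CPM in yak1lst8-1, which overlaps the 7.07, 7.62 and 14.8 CPM of Col0 (−0.64 ± 0.29, edgeR adjusted p = 0.142). MCM6 (AT5G44635), the helicase subunit with the smallest adjusted p in any comparison, was at 11.0, 10.0 and 9.57 CPM in yak1lst8-1 and 13.3, 11.2 and 13.3 CPM in Col0, without overlap and without a call (−0.31 ± 0.19, edgeR adjusted p = 0.270). The call count was 10 without yak1lst8-1 library 1 and 11 when both genotypes were fitted alone, and CYCB1;4, CYCB2;3, CDKB1;2 and TETRASPORE were called under all 12 alternatives. The root meristem markers summed to 60.0 to 61.5 CPM in yak1lst8-1 and 40.6 to 44.5 CPM in Col0, with SCR called higher. The shoot meristem markers summed to 68.2 to 79.8 CPM in yak1lst8-1 and 77.8 to 86.0 CPM in Col0, with KNAT1 called higher and CLV1 called lower. CLV3 and WUS were at 0 in yak1lst8-1, and likewise in maktor1g1 and maktor1g1maktor5g. Of these 8 markers, 5 passed the filter on low counts. The 4 root markers summed to 106 to 142 CPM in yak1lst8-1 and 76.2 to 115 CPM in Col0, with SHV2 and RSL4 called higher, and the 4 leaf markers to 38620.4 to 44570.2 CPM in yak1lst8-1 and 36422.1 to 39260.9 CPM in Col0, with none called. Their part was not tested.

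In the libraries labelled yak1, CYCB1;3 alone of the 41 genes fell relative to Col0, against 11.9 % of all genes called, 6.11 % lower and 5.75 % higher. CYCB1;3 was at 4.55, 2.92 and 3.19 CPM in yak1 and 6.67, 5.93 and 4.79 CPM in Col0, with no overlap (−0.69 ± 0.21, edgeR adjusted p = 0.0390). The median log2 fold change was −0.24 over the mitotic genes, with 28 of 29 negative, and −0.01 over the S-phase genes, with 7 of 12 negative. The mitotic median was −0.04 without yak1 library 3 and −0.40 without yak1 library 1. CYCB2;3 was at 7.18, 6.16 and 4.37 CPM in yak1 and 8.14, 7.16 and 8.72 CPM in Col0, which overlap by 1 library (−0.44 ± 0.17, edgeR adjusted p = 0.0893). CDC6, at 7.93, 10.2 and 11.4 CPM in yak1, lay within the range of Col0 (−0.01 ± 0.28, edgeR adjusted p = 0.987). In 4 members the yak1 libraries all lay below Col0, against 13.4 % of all genes: CYCB1;3, CYCB1;4, BUBR1 and TETRASPORE. TETRASPORE ranged over 6.94 to 8.52 CPM in yak1, against 9.08 to 10.0 CPM in Col0 (−0.31 ± 0.12, edgeR adjusted p = 0.0972). KNOLLE, at 33.9, 23.5 and 22.6 CPM in yak1, spread around the Col0 values. Libraries of yak1 and Col0 with the same number deviated together, and with the number as a block 2 members were called, CYCB1;3 and CYCB2;3. CYCB1;3 lost its call without Col0 library 1, Col0 library 2, yak1 library 2 or yak1 library 3, and when only both genotypes were fitted (edgeR adjusted p up to 0.142). The root meristem markers summed to 51.4 to 60.4 CPM in yak1 and 40.6 to 44.5 CPM in Col0, with SCR called higher. The 4 leaf markers summed to 39012.8 to 53701.1 CPM in yak1 and 36422.1 to 39260.9 CPM in Col0, and the 4 root markers to 84.0 to 137 CPM in yak1 and 76.2 to 115 CPM in Col0, with none of either list called. Their part was not tested.

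The double mutant was then set against each single mutant. Relative to lst8-1, 1 of the 41 genes rose in yak1lst8-1 and none fell, while 33.0 % of all genes were called, 16.4 % higher and 16.6 % lower. The gene was CDC6, at 5.54, 6.26 and 7.35 CPM in yak1lst8-1 and 1.84, 3.57 and 3.98 CPM in lst8-1, with no overlap (log2 fold change 1.04 ± 0.33, edgeR adjusted p = 0.0231). It lost this call without lst8-1 library 1 or yak1lst8-1 library 3 (edgeR adjusted p up to 0.109). The median log2 fold change was 0.05 over the mitotic genes and 0.04 over the S-phase genes. Values were positive in 15 of the 29 mitotic genes and in 8 of the 12 S-phase genes. The mitotic median changed sign without lst8-1 library 3 (−0.13) or yak1lst8-1 library 1 (−0.14), and with libraries scaled by their totals (−0.02). The libraries did not overlap for 1 member that was higher (CDC6) and 2 that were lower in yak1lst8-1 (CYCB2;3 and TETRASPORE), against 22.4 % and 23.7 % of all genes. CDKB1;1 (−0.60 ± 0.23, edgeR adjusted p = 0.0554) and CYCB2;3 (−0.42 ± 0.18, edgeR adjusted p = 0.0752) had the smallest adjusted p-values after CDC6; without lst8-1 library 3 both were called lower beside CDC6.

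Relative to yak1, none of the 41 genes was called in yak1lst8-1 by edgeR or DESeq2, against 2.99 % of all genes by edgeR, and 3 had an unadjusted p below 0.05. The mitotic median was −0.26, with 28 of 29 values negative, and the S-phase median −0.04, with 8 of 12 negative. Without yak1 library 1 the mitotic median was −0.07 and the S-phase median 0.09; without yak1 library 3 they were −0.45 and −0.12, and CYCB2;3 was called. The mitotic median was −0.48 without yak1lst8-1 library 1 and −0.17 without yak1lst8-1 library 3. In 4 members the yak1lst8-1 libraries all lay below those of yak1, against 9.15 % of all genes: CDC6, PCNA2, CYCB1;4 and CDKB1;2. CYCB1;4 was at 6.88, 7.51 and 5.78 CPM in yak1lst8-1 and 8.69, 8.27 and 7.98 CPM in yak1 (−0.31 ± 0.16, edgeR adjusted p = 0.369).

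Whether the difference between yak1lst8-1 and lst8-1 departs from that between yak1 and Col0 was tested as an interaction. None of the 41 genes passed by edgeR or DESeq2, against 3.46 % of all genes by edgeR, and 2 had an unadjusted p below 0.05. The estimate for CDC6 was 1.05 ± 0.44 (edgeR adjusted p = 0.217), and for CYCB1;4 it was 0.51 ± 0.22 (edgeR adjusted p = 0.240). All comparisons with lst8-1 or with Col0 share those libraries, so their values are given side by side and not as separate evidence.

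**Figure D4:**
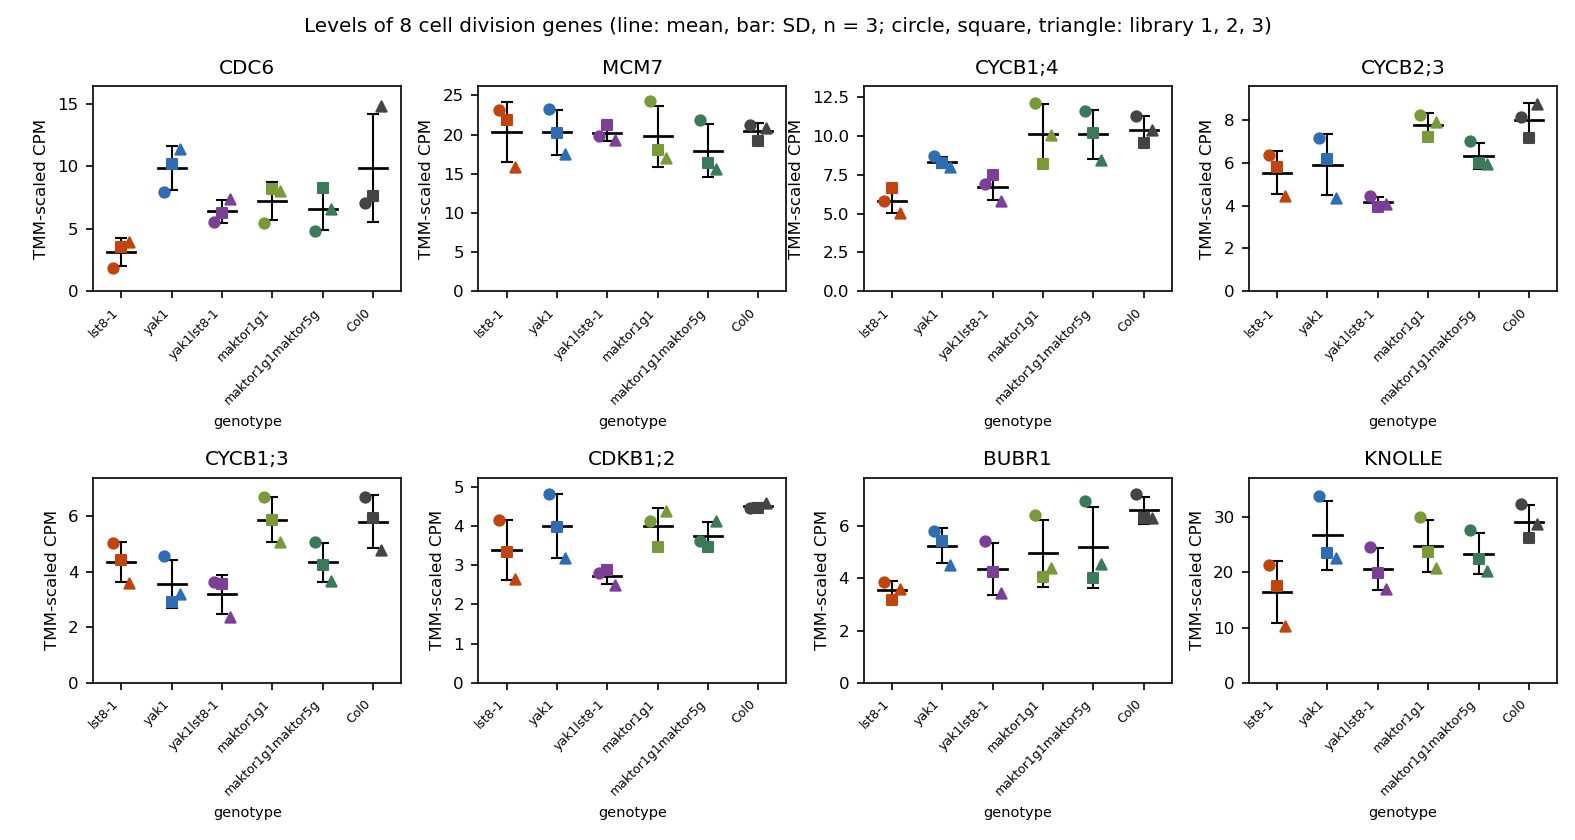
Levels of 8 of the genes in TMM-scaled CPM, by genotype; symbols are libraries 1 to 3, the line is the mean and the bar the SD (n = 3), and each axis starts at 0. CDC6 is lowest in lst8-1 (1.84 to 3.98 CPM), CYCB2;3 and CDKB1;2 have their lowest means in yak1lst8-1 (3.95 to 4.43 and 2.50 to 2.89 CPM), and MCM7 overlaps in all genotypes.

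In both maktor genotypes no member was called by edgeR or DESeq2, but few genes of any kind were: 0.0679 % of all genes in maktor1g1 and likewise 0.0679 % in maktor1g1maktor5g, each relative to Col0, and 0.00970 % between the 2 maktor genotypes. At an unadjusted p below 0.05 there were 0 members in maktor1g1, 1 in maktor1g1maktor5g and 1 between them. The mitotic sum was 302, 220.0 and 230 CPM in maktor1g1 and 270, 213 and 188 CPM in maktor1g1maktor5g, both overlapping the 285, 261 and 256 CPM of Col0. The median log2 fold change in maktor1g1 was −0.06 over the mitotic genes and −0.06 over the S-phase genes. In maktor1g1maktor5g the medians were −0.26 over the mitotic genes and −0.18 over the S-phase genes. A negative value was seen in 27 of 29 mitotic genes and in 11 of 12 S-phase genes. The mitotic median was −0.16 without maktor1g1maktor5g library 3 and −0.42 without its library 1. Libraries of maktor1g1 all lay below Col0 in 1 member, against 6.27 % of all genes, and those of maktor1g1maktor5g in 5 members, against 6.97 %.

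CYCB2;3, for example, was at 7.01, 6.01 and 5.93 CPM in maktor1g1maktor5g and 8.22, 7.19 and 7.93 CPM in maktor1g1, against 8.14, 7.16 and 8.72 CPM in Col0. The double maktor libraries lay below both other genotypes, with log2 fold changes of −0.34 ± 0.16 against Col0 (edgeR adjusted p = 0.431) and −0.30 ± 0.16 against maktor1g1. It was the 1 member whose libraries did not overlap between both maktor genotypes, against 3.38 % of all genes in that direction. CYCB1;4 was at 11.6, 10.2 and 8.48 CPM in maktor1g1maktor5g, 12.1, 8.21 and 10.1 CPM in maktor1g1 and 11.3, 9.54 and 10.4 CPM in Col0, which all overlap. CDC6 was at 4.84, 8.22 and 6.62 CPM in maktor1g1maktor5g and 5.44, 8.21 and 7.99 CPM in maktor1g1, overlapping Col0 in both. KNOLLE overlapped Col0 in maktor1g1maktor5g (27.6, 22.4 and 20.2 CPM) and in maktor1g1 (30.0, 23.6 and 20.8 CPM).

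Ordered by mean level, Col0 had the highest mean of the 6 genotypes for 18 of the 29 mitotic genes and maktor1g1 for 8. The lowest mean belonged to lst8-1 for 15 of the 29, to yak1lst8-1 for 12, and to yak1 and maktor1g1 for 1 each. For the 12 S-phase genes the lowest mean was most often that of maktor1g1maktor5g, in 7 cases, and the highest was shared by Col0 (4), yak1 (4), maktor1g1 (3) and yak1lst8-1 (1). For KNOLLE the means were 16.4 ± 5.59 CPM in lst8-1, 20.5 ± 3.84 CPM in yak1lst8-1, 23.4 ± 3.78 CPM in maktor1g1maktor5g, 24.8 ± 4.74 CPM in maktor1g1, 26.7 ± 6.25 CPM in yak1 and 29.1 ± 3.11 CPM in Col0, and each overlapped its neighbours in this order. For CYCB1;3 the means were 3.18 ± 0.712 CPM in yak1lst8-1, 3.56 ± 0.875 CPM in yak1, 4.33 ± 0.715 CPM in maktor1g1maktor5g, 4.35 ± 0.724 CPM in lst8-1, 5.86 ± 0.802 CPM in maktor1g1 and 5.80 ± 0.951 CPM in Col0. The libraries of Col0 (4.79 to 6.67 CPM) overlapped those of maktor1g1maktor5g, lst8-1 and maktor1g1, and lay above all those of yak1lst8-1 and yak1. For CDC6 the lst8-1 libraries (3.13 ± 1.13 CPM) lay below every library of the other 5 genotypes.

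The MSA core was set beside the calls. Of the 10 mitotic genes that fell in lst8-1, 8 held the core and 7 its longer form; of the 19 not called, 12 held the core and 5 the longer form. The promoters of CDKB2;1 and BUBR1, which fell, held neither. In yak1lst8-1, 4 of the 6 that fell held the core and 3 the longer form, against 16 and 9 of the 23 not called. These counts are a description and were not tested. Among the S-phase genes all 5 with an E2F site of the forms searched were uncalled in each comparison. So were 6 of the 7 without these forms, among them CDT1A, PCNA1 and PCNA2, whose windows hold similar runs. CDC6 is the other.

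Further genes of the same processes were read from lists chosen by function, also with earlier results of these data known. Of 15 other replication genes, 2 rose and none fell in lst8-1 relative to Col0, a share near the 14.1 % of all genes called higher. They were ORC4, a subunit of the origin recognition complex (0.69 ± 0.20, edgeR adjusted p = 0.0166), and RNR2A, a ribonucleotide reductase subunit (0.22 ± 0.07, edgeR adjusted p = 0.0268). Relative to Col0, 1 fell in yak1lst8-1, the origin subunit ORC5 (−0.45 ± 0.11, edgeR adjusted p = 0.00865), against 8.65 % of all genes called lower. Relative to lst8-1, 3 fell in yak1lst8-1, against 16.6 % of all genes: ORC4 (−0.97 ± 0.21, edgeR adjusted p = 0.00171), ORC5 (−0.48 ± 0.11, edgeR adjusted p = 0.00320) and ORC1B (−0.75 ± 0.27, edgeR adjusted p = 0.0404). Relative to yak1, RNR2A rose in yak1lst8-1 (0.30 ± 0.07, edgeR adjusted p = 0.0275), against 2.99 % of all genes called in either direction. None of the 5 genes of the replication-dependent histone H3.1 was called in any of the 9 comparisons, and their summed level was 90.8 to 137 CPM in lst8-1, 125 to 143 CPM in yak1lst8-1 and 122 to 159.9 CPM in Col0.

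Of 17 other mitotic genes 16 were tested, as CYCA3;3 had 0 counts in all libraries. In lst8-1, 2 fell relative to Col0 and none rose: MAD2, a spindle checkpoint protein (−0.60 ± 0.18, edgeR adjusted p = 0.0192), and FZR3, an activator of the anaphase-promoting complex (−0.71 ± 0.21, edgeR adjusted p = 0.0171), with a list median of −0.32. That share is near the 13.4 % of all genes called lower. In yak1lst8-1, 5 fell relative to Col0 and none rose, against 8.65 % of all genes called lower, with a median of −0.52. The 3 with the smallest adjusted p were MAD2 (−0.72 ± 0.19, edgeR adjusted p = 0.00972), CYCA3;4 (−0.40 ± 0.12, edgeR adjusted p = 0.0242) and FZR3 (−0.65 ± 0.21, edgeR adjusted p = 0.0370). Relative to lst8-1, CYCA3;4 fell in yak1lst8-1 (−0.52 ± 0.12, edgeR adjusted p = 0.00268), against 16.6 % of all genes called lower. In yak1 and both maktor genotypes no gene of this list was called relative to Col0.

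Of 14 regulators of the cell cycle, among them the E2F and MYB3R factors, only RBR1 was called. This retinoblastoma protein, which restrains E2F, rose in lst8-1 relative to Col0 (0.34 ± 0.09, edgeR adjusted p = 0.0106), against 14.1 % of all genes called higher. It fell in yak1lst8-1 relative to lst8-1 (−0.26 ± 0.09, edgeR adjusted p = 0.0349), against 16.6 % of all genes called lower. In both comparisons 1 gene of 14 is not above the share over all genes. The MYB3R genes were not called in any comparison, and the median of the list was −0.04 in lst8-1, −0.12 in yak1 and −0.13 in yak1lst8-1, each relative to Col0.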

How the data were processed

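The 18 libraries were polyA-selected, stranded and read single-end, per the labels' protocols. TopHat2, Bowtie2 and TAIR10 are named in the submitters' processing notes, and their versions are not given in the sources used here. The authors deposited 1 table of raw gene counts per library; per the file headers, counts were made with sam2pkm after reads whose best and second best alignments scored the same were removed, which took out 1.85 to 2.22 % of reads. Whether strand was used in counting is not stated, and 14 of the 41 genes overlap a gene on the opposite strand. Among them are CDC6, KNOLLE, AUR1, TPX2, CDKB2;1 and CDKB1;2, which were each called in a comparison above. Of the genes opposite these, only the level of AT2G29679, opposite CDC6, is given here.

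Counts were fitted with edgeR 4.0.16 in R 4.3.3: filterByExpr by genotype, which kept 20619 of 33602 gene models, TMM scaling, 1 coefficient per genotype over all 18 libraries (12 residual degrees of freedom, common biological coefficient of variation 10.8 %), robust quasi-likelihood F tests, two-sided, and Benjamini-Hochberg adjustment, with genes called at an adjusted p below 0.05. Errors of fold changes are SE from a Wald approximation scaled by the moderated quasi-likelihood dispersion. Levels are TMM-scaled CPM with SD, and levels per kilobase use the deposited gene lengths. Library totals of 10801464 to 17548790 set the precision, a gene with 0 counts may be at up to 0.278 CPM in a library (3 counts), and this covers counting error only. Libraries of a genotype differed by more than sampling noise (chi-square per degree of freedom 2.99 to 22.8), so none was counted as a copy of another. The fit was tested on simulated counts with known changes, drawn at a common dispersion and without a shift by library number. It was thus not tested on counts with such a shift.

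The members and gene lists were chosen with earlier results of these data known. Values in each library are given, within each role, for at most 3 members, ranked by their lowest adjusted p over the 9 comparisons, and for the member with the highest level per kilobase; called members are named, and list genes are named where called, up to 3 per list and comparison. The labels give all genotypes library numbers 1 to 3. Deviations of same-numbered libraries from their group means correlated above 0.1 in every pair for yak1 with Col0 (0.100 to 0.360) and for both maktor genotypes (0.214 to 0.535). They did not do so in every pair of the other comparisons. For yak1lst8-1 with yak1 the range was 0.0896 to 0.631, and each library correlated best with the one of the same number. Any pairing rests on the data alone. Alternatives were size factors, library totals, no filter, DESeq2 1.42.0, the library number as a block, only the groups compared, and leaving out each library. Promoters were read from the RefSeq TAIR10.1 assembly, while the counts used TAIR10.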

Additional observations from a re-analysis of the deposited data

Results flagged for a closer look

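RSL4 (AT1G27740), a root hair transcription factor on the list of root markers, was flagged because the genotypes differed in their response: its log2 change in yak1lst8-1 relative to lst8-1 minus that in yak1 relative to Col0 was −1.29 (edgeR quasi-likelihood interaction, Benjamini-Hochberg adjusted p = 0.0147, 3 libraries per genotype). None of the 41 cell division genes met a rule for flagging.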

How the results depend on the processing

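No called gene changed direction under any alternative run. Some medians near 0 did. For example, leaving out each library in turn, the S-phase median of lst8-1 minus Col0 ran from −0.21 to 0.07 and the mitotic median of yak1lst8-1 minus lst8-1 from −0.14 to 0.18. Of the 228 refits of called genes, 178 kept the call and 50 lost it. Scaling by library totals gave 6 called members in lst8-1 minus Col0 and 2 in yak1lst8-1 minus lst8-1. Fitting only the groups compared gave 0 in yak1 minus Col0 and 11 in yak1lst8-1 minus Col0. With the library number as a replicate block, 21 members were called in lst8-1 minus Col0, 2 in yak1 minus Col0, 19 in yak1lst8-1 minus Col0, 6 in yak1lst8-1 minus lst8-1, 4 in yak1lst8-1 minus yak1, and 1, CDC6, in the interaction. Same-numbered libraries correlated above 0.1 in every pair only for yak1 with Col0 and between the maktor genotypes. There the block added CYCB2;3 in yak1 minus Col0 and moved no other call of a member. For yak1lst8-1 with yak1 the correlations were 0.0896 to 0.631, and each library correlated best with the one of the same number. The cut of 0.1 does not show that libraries of the other comparisons are unpaired.

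Leaving out each library in turn, the members called ranged from 3 to 13 in lst8-1 minus Col0, 0 to 2 in yak1 minus Col0, 5 to 10 in yak1lst8-1 minus Col0, 0 to 3 in yak1lst8-1 minus lst8-1 and 0 to 1 in yak1lst8-1 minus yak1. No alternative run called a member in the maktor comparisons. Over all genes, the count differed by more than 1.5 times in settings that include these. In yak1 minus Col0, 2446 became 929 with only the groups compared and 4111 with the block. In maktor1g1 minus Col0, 14 became 102 with DESeq2, 238 with the block and 6 to 8 without a maktor1g1 library. In maktor1g1maktor5g minus Col0, 14 became 157 with DESeq2, 653 with the block, 32 with library totals, 23 without the filter, 5 with only the groups compared, 25 without Col0 library 1 and 8 without maktor1g1maktor5g library 3. In yak1lst8-1 minus yak1, 616 became 1601 with the block and 333 with only the groups compared, and in the interaction 714 became 1889 and 338. Without 1 library these counts went down to 299 and 347, and the 2 calls between the maktor genotypes to 0 or 1. The mitotic median of maktor1g1 minus Col0 was −0.25 without maktor1g1 library 1. The causes were not tested. Members with few counts, such as CYCA2;1, had the widest errors (SE up to 0.37 in lst8-1 minus Col0).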
